A study of Mus musculus with 15 samples.

Results

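Primordial germ cell-like cells (PGCLCs) on day 4 of induction (D4PGCLC) were compared with those on day 2 (D2PGCLC) across all genes, to find which genes and functions changed in the second step of the induction. The comparison used the 3 D4PGCLC and the 3 D2PGCLC samples among the 15 RNA-seq samples of the series, chosen by their labels alone. All samples came from male mouse embryonic stem cells (ESCs). They carry doxycycline-inducible copies of 4 transcription factor genes of the germline and of pluripotency (4TF), namely *Nanog*, *Tfap2c*, *Prdm14* and *Prdm1*. Epiblast-like cells (EpiLCs) were made from naive ESCs with activin A and bFGF. For PGCLCs, EpiLCs were then aggregated in GK15 medium with doxycycline from day 0, and Stella-eGFP+ cells were collected on days 2, 4 and 6. The reporter marks cells that express *Stella* (*Dppa3*). Several clonal lines carrying combinations of these genes were isolated in the study, and the replicates may describe 1 clone. No source used here says whether they came from 1 clone or were separate inductions. If they were not separate inductions, the p-values measure only the spread between these samples.

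Primordial germ cells are the embryonic founders of sperm and eggs. Their specification turns on a small network of transcription factors and, in the days that follow, the cells lose most DNA methylation and begin to express germline genes that somatic cells keep silent. Many of these silent genes have promoters that are held off by DNA methylation or by the Polycomb complex PRC1.6, whose MGA-MAX and E2F6 subunits recognise E-box and E2F-like motifs. They include *Dazl*, genes that process piRNAs (small RNAs that silence transposons in germ cells) and genes of the meiotic chromosome axis.

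Each sample held 28907803 to 34808685 counted reads. Of the 6 samples, D2PGCLC replicate 2 was the shallowest. Levels are CPM, counts scaled to library size with TMM normalization, in which 3 reads were at most 0.104 CPM. The test was the quasi-likelihood F test of edgeR, fitted to all 15 samples together over the 18090 genes that passed its filter on low counts. A gene is said here to rise or fall where its Benjamini-Hochberg adjusted p was under 0.05, and it was called where its log2 fold change was also above 1 or below -1. One library of the other groups stood apart, since D6PGCLC replicate 1 had 18061 genes with a count against 21103 to 24343 in the 14 other libraries. It enters the comparison of day 4 with day 2 through the shared estimate of the spread, the filter on low counts and the adjustment of p-values, and without it 18599 genes were tested and 644 called, against 531.

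From day 2 to day 4, 463 genes were called higher and 68 lower, which are 2.56% and 0.376% of the genes tested. At the adjusted p alone 1313 genes rose (7.26%) and 833 fell (4.6%). The median log2 fold change of all tested genes was 0.02. The 463 genes called higher had a median level of 1.14 CPM on day 2, 220 of them were below 1 CPM on average on that day, and the median of their log2 fold changes was 1.38. Genes called lower had a median of 5.70 CPM on day 2 and a median log2 fold change of -1.42. The 3 D4PGCLC samples did not overlap the 3 D2PGCLC samples in 459 of the 463 and in 66 of the 68 genes, against 28.5% of all genes tested. The count called lower moved most with the libraries used, being 34 without D4PGCLC replicate 3 and 103 without D6PGCLC replicate 1. DESeq2 called 541 genes higher and 97 lower in the same samples.

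**Figure D1:**
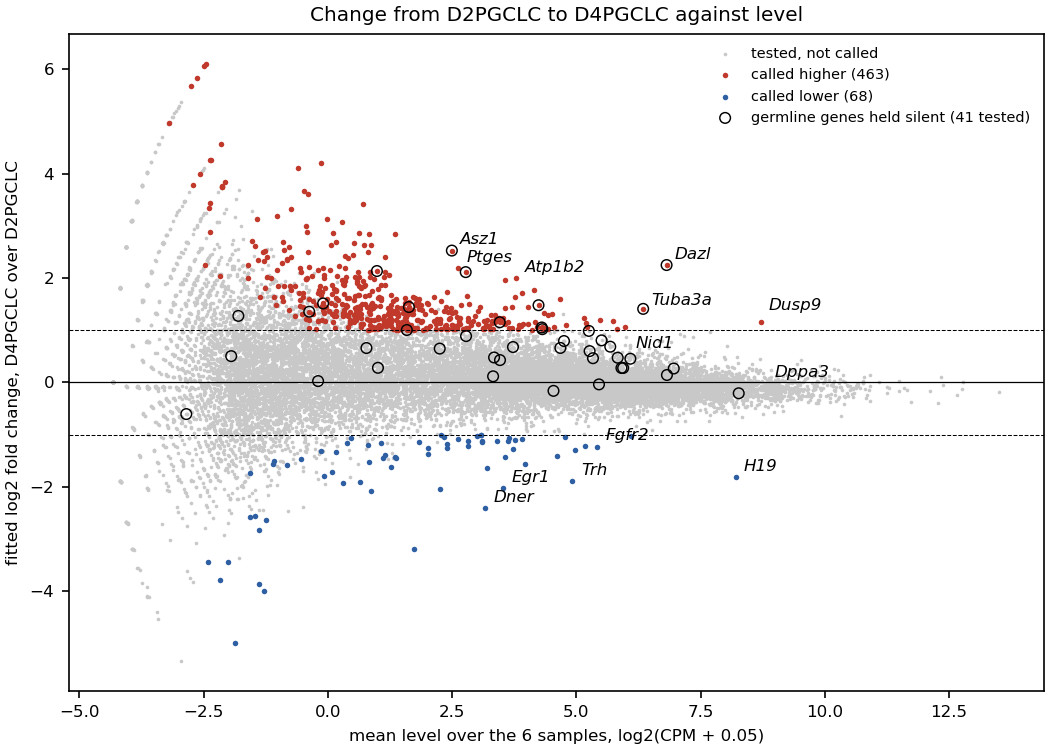
Each point is 1 of the 18090 tested genes, with the log2 of its mean CPM over the 6 samples (0.05 added) on the x axis and the fitted log2 fold change of D4PGCLC over D2PGCLC on the y axis; dashed lines mark log2 fold changes of 1 and -1. Red and blue points are the 463 genes called higher and the 68 called lower, and black circles mark the 41 tested genes of the list of germline genes held silent, most of which lie above 0.

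The genes that drive and report the induction did not pass the test on day 4 against day 2. Cells of both days were sorted on the *Dppa3* reporter after doxycycline from day 0, so similar levels of these genes are in part set by the design. *Dppa3*, whose reporter was used to sort the cells, was at 438, 482 and 436 CPM in D2PGCLC and 406, 424 and 515 CPM in D4PGCLC, and the ranges overlapped. The fitted log2 fold change was -0.01 ± 0.11 (SE), adjusted p = 0.97. *Nanog*, a core pluripotency factor, was at 789.8, 845 and 889 CPM in D2PGCLC and 691, 851 and 759.6 CPM in D4PGCLC (adjusted p = 0.478). For *Tfap2c*, which encodes the transcription factor AP-2 gamma, the values were 234, 222 and 239 CPM in D2PGCLC and 189, 214 and 201 CPM in D4PGCLC, lower in every D4PGCLC sample but with an adjusted p of 0.0799. *Prdm1*, the repressor BLIMP1, was at 114, 101 and 103 CPM in D2PGCLC and 108, 85.9 and 89.3 CPM in D4PGCLC (adjusted p = 0.348), and *Prdm14* was at 94.0, 95.2 and 91.0 CPM in D2PGCLC and 84.3, 98.4 and 87.8 CPM in D4PGCLC (adjusted p = 0.82). Counts per gene do not separate reads of the transgenes from reads of the endogenous genes. Of 23 early PGC genes, all tested, 2 rose, 2 fell and none was called, where 7.26% of all tested genes rose and 4.6% fell. *Lin28a*, a let-7 inhibitor, fell from 129 ± 18.5 to 77.4 ± 12.5 CPM (SD, n = 3; log2 fold change -0.74 ± 0.12 (SE), adjusted p = 0.000586), and *Tcl1*, an AKT coactivator, rose from 59.8 ± 10.0 to 88.3 ± 8.12 CPM (log2 fold change 0.56 ± 0.11 (SE), adjusted p = 0.00261). *Sall4* fell by 0.35 and *Itgb3* rose by 0.30 on the log2 scale, but *Sall4* had an adjusted p above 0.05 in 4 of the 12 alternative fits and *Itgb3* in 5. *Pou5f1*, the pluripotency factor OCT4, was at 944, 1034 and 1049.8 CPM in D2PGCLC and 876, 1089 and 1089 CPM in D4PGCLC (adjusted p = 0.957), and *Kit*, *Nanos3* and *Alpl* did not pass the test either. The median log2 fold change of the 23 genes was -0.04.

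Among the germline genes held silent, a list of 42 genes, 41 passed the filter on low counts and *Ccnb3* did not, with 7 counts at most in a sample. The name refers to somatic cells, and not all members were silent here before day 4. *Dazl* had a mean of 39.1 CPM in D2PGCLC, and *Tuba3a* had 44.4 CPM there and 68.2 CPM in ESCs. In D4PGCLC, 24 of the 41 rose and none fell, where 7.26% of all tested genes rose, and 13 were called higher, where 2.56% of all were. The median log2 fold change of the 41 genes was 0.66. All D4PGCLC samples were above all D2PGCLC samples for 26 of the 41 genes, against 16.5% of all tested genes. The number that rose was 15 without D2PGCLC replicate 1 or without D4PGCLC replicate 3, and the number called was 8 without D2PGCLC replicate 2. The list overlaps those of piRNA and meiotic genes described next. Like the other lists here, it was chosen with earlier results of these data known, so these shares describe the list and do not test it. Fewer cells of a type and less RNA per cell cannot be told apart in such bulk samples, and this holds for each gene below.

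The promoters of the 6 called members with the smallest p-values are printed to show where 2 motifs lie and which of these promoters lack them. Each is the 250 bases before the transcript start in RefSeq (GRCm38.p6), 5′ to 3′ along the gene's strand, in lower case, with 2 motifs in capitals: the E-box CACGTG, and GCGGGAA of the E2F type on either strand, which reads TTCCCGC where it lies on the other strand.
*Dazl* (chr17:50293621-50293870, minus strand): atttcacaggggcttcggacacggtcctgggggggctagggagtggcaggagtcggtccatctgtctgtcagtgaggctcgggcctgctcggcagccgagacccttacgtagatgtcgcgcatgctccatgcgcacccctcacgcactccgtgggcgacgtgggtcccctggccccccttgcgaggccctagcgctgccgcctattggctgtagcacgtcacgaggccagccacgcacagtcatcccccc
*Tuba3a* (chr6:125286082-125286331, minus strand): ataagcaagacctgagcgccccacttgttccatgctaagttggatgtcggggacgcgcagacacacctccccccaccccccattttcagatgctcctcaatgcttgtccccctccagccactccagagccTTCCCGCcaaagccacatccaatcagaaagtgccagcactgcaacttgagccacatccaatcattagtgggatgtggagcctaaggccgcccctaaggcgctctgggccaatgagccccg
*Tuba3b* (chr6:145615713-145615962, plus strand): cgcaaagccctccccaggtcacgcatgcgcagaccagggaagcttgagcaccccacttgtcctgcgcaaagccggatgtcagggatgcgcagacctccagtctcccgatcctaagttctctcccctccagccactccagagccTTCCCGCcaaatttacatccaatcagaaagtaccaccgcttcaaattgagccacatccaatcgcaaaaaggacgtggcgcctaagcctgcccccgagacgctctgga
*Mov10l1* (chr15:88982744-88982993, plus strand): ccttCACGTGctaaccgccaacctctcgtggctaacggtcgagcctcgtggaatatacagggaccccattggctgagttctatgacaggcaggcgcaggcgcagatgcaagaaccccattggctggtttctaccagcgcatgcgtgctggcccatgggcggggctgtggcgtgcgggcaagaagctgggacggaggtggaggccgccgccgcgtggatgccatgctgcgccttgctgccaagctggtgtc
*Fkbp6* (chr5:135350045-135350294, minus strand): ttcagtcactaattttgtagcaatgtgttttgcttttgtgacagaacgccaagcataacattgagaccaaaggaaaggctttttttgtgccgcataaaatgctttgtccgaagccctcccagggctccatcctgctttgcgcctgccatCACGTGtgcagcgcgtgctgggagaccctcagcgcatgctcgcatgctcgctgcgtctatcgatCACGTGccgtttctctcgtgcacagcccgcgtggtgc
*Stra8* (chr6:34920698-34920947, plus strand): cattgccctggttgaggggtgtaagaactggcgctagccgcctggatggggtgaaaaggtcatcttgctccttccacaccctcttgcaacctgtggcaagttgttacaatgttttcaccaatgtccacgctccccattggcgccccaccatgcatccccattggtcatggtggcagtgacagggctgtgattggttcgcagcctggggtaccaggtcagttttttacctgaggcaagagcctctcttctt

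CACGTG occurred once in the *Mov10l1* promoter, starting 246 bases before the transcript start, and 2 times in that of *Fkbp6*, starting 101 and 37 bases before it. The *Tuba3a* and *Tuba3b* promoters each held GCGGGAA on the opposite strand, inside a stretch of 33 bases that both share without a mismatch. Neither motif was found in these windows of *Dazl* and *Stra8*. Of the 41 tested genes of the list, 35 had a RefSeq promoter, and 14 of the 35 (40%) held CACGTG, against 6.02% of all 32851 RefSeq promoters. GCGGGAA was found in 11 of the 35 (31.4%) and in 3.82% of all promoters. The 2 motifs share no bases where they are printed. The list was assembled as genes held silent by promoter methylation or by PRC1.6, whose subunits bind motifs of these kinds, so a higher share is built into the choice of its members. These are matches of letters and show no binding. The number of CpG dinucleotides in the 250 bases was 20 in *Dazl*, 19 in *Mov10l1*, 17 in *Fkbp6*, 14 in *Tuba3b*, 8 in *Tuba3a* and 5 in *Stra8*. The median was 16 over the 35 promoters and 6 over all promoters given by RefSeq. A comparison with tested genes is void, since only 12255 of the 18090 had a promoter there. Of those 12255, 8.21% held CACGTG, 6.82% held GCGGGAA and the median number of CpG was 15.

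*Dazl* encodes an RNA-binding protein that licenses germ cells for gametogenesis. Its levels were 44.0, 28.1 and 45.2 CPM in D2PGCLC and 211, 137 and 211 CPM in D4PGCLC. Every D4PGCLC sample was far above every D2PGCLC sample, and replicate 2 was the lowest in both groups. The gene (ENSMUSG00000010592, chr17:50279395-50293636) had a log2 fold change of 2.25 ± 0.18 (SE), adjusted p = 9.17e-07, and its log2 fold change ranged from 2.06 to 2.43 over the alternative fits. *Tuba3a* and *Tuba3b* encode alpha-tubulins of the testis. *Tuba3a* was at 44.2, 37.1 and 51.9 CPM in D2PGCLC and 102, 135 and 118 CPM in D4PGCLC (log2 fold change 1.41 ± 0.12 (SE), adjusted p = 2.38e-06). *Tuba3b* was at 2.94, 1.47 and 3.18 CPM in D2PGCLC and 10.0, 10.3 and 12.8 CPM in D4PGCLC (log2 fold change 2.11 ± 0.28 (SE), adjusted p = 0.000136). Both genes were higher in all 3 D4PGCLC samples, but they are near-copies, and how reads that match several genes were counted is not stated, so the split between them is uncertain.

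Genes of the piRNA pathway rose as well. Of 24 genes in that list 22 were tested, of which 11 rose, none fell and 5 were called higher, with a median log2 fold change of 0.74. Of all tested genes 7.26% rose and 2.56% were called higher. Without D2PGCLC replicate 2, 3 were called. The piRNA pathway cuts long precursor RNAs into small RNAs that guide PIWI proteins to transposons. *Asz1*, which encodes a protein of the mitochondrial surface where piRNAs are processed, had the highest fold change among called genes whose days did not overlap and whose counts averaged 100 or more. It was at 1.72, 0.502 and 2.67 CPM in D2PGCLC and 10.8, 7.41 and 10.4 CPM in D4PGCLC, with replicate 2 lowest on both days (log2 fold change 2.53 ± 0.38 (SE), adjusted p = 0.000374). *Mov10l1*, the RNA helicase that starts piRNA processing, was at 13.9, 11.6 and 13.8 CPM in D2PGCLC and 29.2, 24.7 and 25.9 CPM in D4PGCLC (log2 fold change 1.02 ± 0.13 (SE), adjusted p = 0.000138). *Fkbp6*, a cochaperone that loads PIWI proteins, was at 13.4, 10.4 and 14.7 CPM in D2PGCLC and 24.7, 25.4 and 29.8 CPM in D4PGCLC (log2 fold change 1.05 ± 0.15 (SE), adjusted p = 0.000306). *Tdrkh*, a Tudor protein that helps to trim piRNA ends, was at 7.23, 6.16 and 6.96 CPM in D2PGCLC and 17.0, 12.9 and 15.4 CPM in D4PGCLC (log2 fold change 1.15 ± 0.17 (SE), adjusted p = 0.000372). All these genes had separate ranges on the 2 days. *Gtsf1*, a cofactor of PIWI proteins, was also called, with mean levels of 1.72 and 4.46 CPM. *Gpat2*, *Piwil2*, *Ddx4*, *Tdrd7*, *Mael* and *Pld6* rose by 0.60 to 0.99 on the log2 scale, below the limit for a call. *Piwil2*, one of the PIWI proteins of fetal germ cells, rose from 25.5 ± 6.91 to 50.6 ± 3.39 CPM. The PIWI gene *Piwil4*, by contrast, was at 0.433 and 0.875 CPM (adjusted p = 0.101), and *Tdrd1*, *Tdrd9*, *Tdrd5*, *Rnf17*, *Piwil1*, *Mybl1*, *Exd1*, *Henmt1*, *Tex15* and *Tdrd12* did not pass the test either.

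Of the 41 meiotic prophase genes, all tested, 11 rose, none fell and 4 were called higher, and the median log2 fold change was 0.43. Over all tested genes, 7.26% rose and 2.56% were called higher. *Stra8*, the factor that starts the meiotic programme in answer to retinoic acid, was at 5.61, 11.9 and 12.3 CPM in D2PGCLC and 24.6, 24.4 and 34.1 CPM in D4PGCLC (log2 fold change 1.48 ± 0.22 (SE), adjusted p = 0.000372). All D4PGCLC samples were above all D2PGCLC samples, and replicate 1 was the lowest on day 2. *Meiob*, a single-strand DNA-binding protein of meiotic recombination, was at 1.99, 2.01 and 1.77 CPM in D2PGCLC and 5.85, 4.19 and 5.36 CPM in D4PGCLC (log2 fold change 1.42 ± 0.28 (SE), adjusted p = 0.00299). *Majin*, which ties telomeres to the nuclear envelope, and *Tex12*, of the central element of the synaptonemal complex, were also called, from means of 0.457 and 0.382 CPM to 1.31 and 1.26 CPM. Parts of the meiotic cohesin and axis rose by less: *Stag3* and *Smc1b*, cohesin subunits, *Hormad1* and *Sycp3*, axis proteins, and *Zcwpw1*, *Rec114* and *Ccdc36*, which act in recombination, by 0.47 to 0.79 on the log2 scale. *Rec114* overlaps *Nptn* on the opposite strand. The other 30 genes did not pass the test. These included *Dmc1*, the meiotic recombinase, at means of 7.10 and 7.83 CPM, *Rec8* at 21.0 and 20.7 CPM, and *Spo11*, which makes the breaks that start recombination, at 0.419 and 0.110 CPM. The count of genes that rose was 6 without any 1 of D2PGCLC replicate 1, D2PGCLC replicate 2, D4PGCLC replicate 1 or D4PGCLC replicate 3, and 7 without D2PGCLC replicate 3. That of genes called was 2 without D2PGCLC replicate 2, D2PGCLC replicate 3 or D4PGCLC replicate 2.

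**Figure D2:**
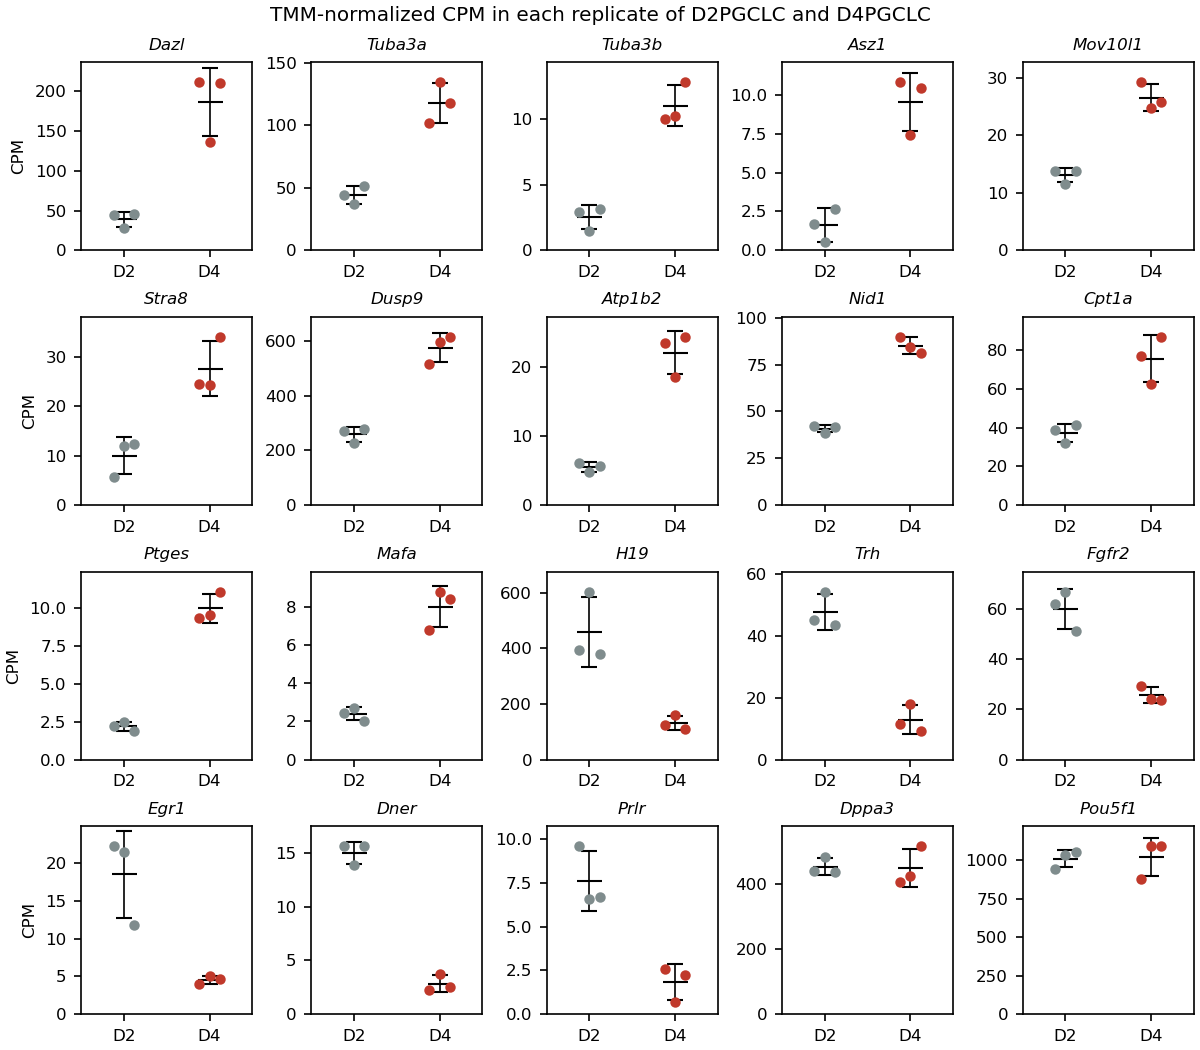
Levels in TMM-normalized CPM (y axis, from 0) of 20 genes in each replicate of D2PGCLC (grey) and D4PGCLC (red), with the mean and SD (n = 3) as black bars. The panels from *Dazl* to *Mafa* have all D4PGCLC samples above all D2PGCLC samples, those from *H19* to *Prlr* the reverse, and the ranges of *Dppa3* and *Pou5f1* overlap.

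The remaining called members of the germline list were low on both days. *Dpep3*, a dipeptidase of germ cells, was called higher from a mean of 0.710 to 3.15 CPM. *Slc25a31*, the ADP/ATP carrier of germ cells, went from 1.63 to 4.47 CPM, *Taf7l*, a germ cell form of a TFIID subunit, from 1.97 to 3.95 CPM, and *Tex101* from 0.403 to 1.04 CPM. Their adjusted p-values were between 0.00451 and 0.0494. Some members that were already abundant on day 2 did not pass the test, such as *Tex14* (108 and 119 CPM, adjusted p = 0.554), *Dmrt1* (54.2 and 65.7 CPM, adjusted p = 0.218) and *Zfp42* (330.2 and 286 CPM, adjusted p = 0.0923). *Tex19.1*, at a mean of 113 CPM, rose by 0.27.

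The *Rhox* genes, a cluster of homeobox genes on the X chromosome that act in reproductive tissues, had the highest median of all lists. Of 34 genes, 22 were tested, and 9 had no count in any of the 6 samples. In D4PGCLC 12 of the 22 rose, none fell and 8 were called higher, and the median log2 fold change was 1.57. The shares over all tested genes were 7.26% that rose and 2.56% called higher. The 8 called genes were *Rhox2a* to *Rhox2h*, which are near-identical copies, so they are not 8 independent measurements and the share of reads of each is uncertain. *Rhox2a*, the most abundant of them, was at 6.74, 4.77 and 9.36 CPM in D2PGCLC and 20.7, 19.5 and 28.0 CPM in D4PGCLC, and D4PGCLC was higher throughout (log2 fold change 1.70 ± 0.20 (SE), adjusted p = 5.81e-05). *Rhox2d* had 7, 1 and 0 counts in D2PGCLC and 56, 35 and 74 counts in D4PGCLC, and *Rhox2e* had 5, 0 and 5 counts in D2PGCLC and 46, 25 and 63 counts in D4PGCLC. The log2 fold changes of the more abundant members were smaller. *Rhox5* was at 103, 131 and 121 CPM in D2PGCLC and 168, 184 and 204 CPM in D4PGCLC (log2 fold change 0.65 ± 0.10 (SE), adjusted p = 0.000332), *Rhox6* rose from 75.8 ± 13.1 to 116 ± 15.3 CPM (log2 fold change 0.62, adjusted p = 0.0201), and *Rhox9* was at 81.8, 94.9 and 107 CPM in D2PGCLC and 123, 109 and 158 CPM in D4PGCLC (adjusted p = 0.0574).

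**Figure D3:**
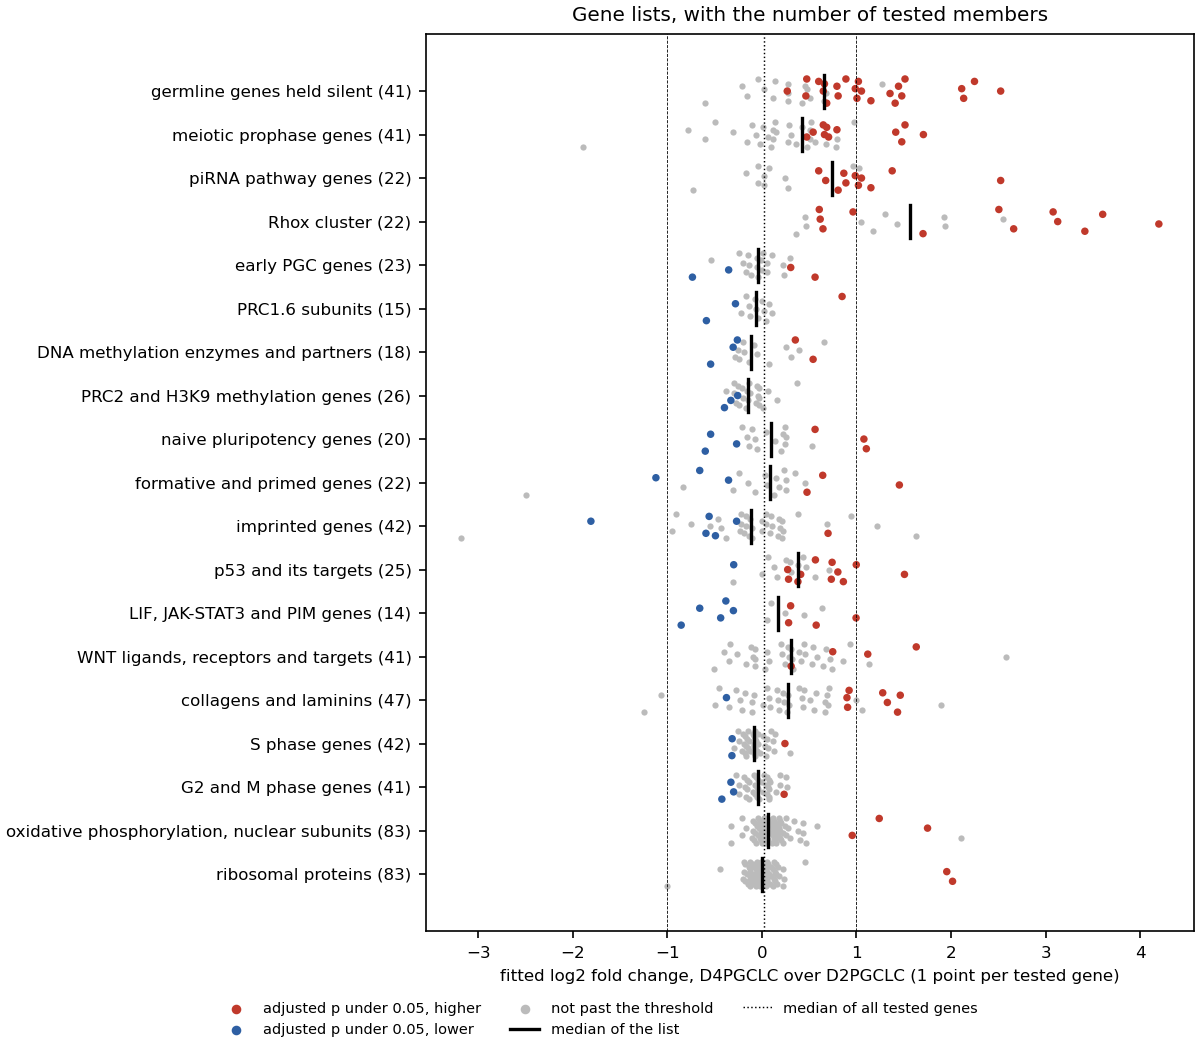
Fitted log2 fold changes of D4PGCLC over D2PGCLC (x axis) for the tested members of 19 gene lists (rows, with the number of tested members), 1 point per gene; red and blue points have an adjusted p under 0.05, thick bars are list medians, dashed lines mark 1 and -1, and the dotted line is the median of all tested genes. The medians of the germline genes held silent, meiotic, piRNA and *Rhox* lists are 0.66, 0.43, 0.74 and 1.57, while those of the cell cycle, ribosomal and oxidative phosphorylation lists lie within 0.1 of 0.

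Outside these lists, the genes that follow had the highest fold changes among called genes whose days did not overlap and whose counts averaged 100 or more. *Ptges*, which makes prostaglandin E2, was at 2.18, 2.47 and 1.89 CPM in D2PGCLC and 9.31, 9.52 and 11.1 CPM in D4PGCLC (log2 fold change 2.19 ± 0.17 (SE), adjusted p = 9.17e-07). *Atp1b2*, a beta subunit of the sodium pump, was at 6.13, 4.73 and 5.64 CPM in D2PGCLC and 23.4, 18.4 and 24.3 CPM in D4PGCLC (log2 fold change 2.00 ± 0.20 (SE), adjusted p = 7.47e-06). *Actn2*, the alpha-actinin of muscle, was at 7.88, 8.81 and 7.29 CPM in D2PGCLC and 26.9, 27.3 and 27.6 CPM in D4PGCLC (log2 fold change 1.77 ± 0.18 (SE), adjusted p = 1.17e-05). For these 3 genes all D4PGCLC samples were far above the highest D2PGCLC sample. *Rpl39l*, a ribosomal protein copy used in the testis, was at 4.60, 3.23 and 6.60 CPM in D2PGCLC and 13.3, 15.0 and 27.9 CPM in D4PGCLC, with replicate 3 highest on both days (log2 fold change 1.96 ± 0.28 (SE), adjusted p = 0.000286). *Mafa*, a transcription factor of pancreatic beta cells, was at 2.45, 2.72 and 2.04 CPM in D2PGCLC and 6.79, 8.80 and 8.42 CPM in D4PGCLC (log2 fold change 1.74 ± 0.27 (SE), adjusted p = 0.000441). *Apba2*, a neuronal adaptor protein, rose from 3.31 ± 0.678 to 10.4 ± 2.81 CPM, *Pde3a*, a cyclic nucleotide phosphodiesterase, from 6.54 ± 1.55 to 20.5 ± 2.24 CPM, and *Galnt12*, which starts O-linked glycans, from 1.56 ± 0.327 to 4.88 ± 1.22 CPM, with log2 fold changes of 1.65, 1.65 and 1.64.

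The most abundant genes called higher were *Dusp9*, *Dazl*, *Tuba3a*, *Nid1*, *Cpt1a* and *Sept1*. *Dusp9*, an X-linked phosphatase of ERK (ENSMUSG00000031383, chrX:73639419-73643514), was at 272, 228 and 278 CPM in D2PGCLC and 515, 598 and 616 CPM in D4PGCLC (log2 fold change 1.15 ± 0.10 (SE), adjusted p = 1.28e-06). *Nid1*, the basement membrane protein nidogen, was at 42.0, 38.4 and 41.7 CPM in D2PGCLC and 89.7, 84.7 and 81.0 CPM in D4PGCLC (log2 fold change 1.06 ± 0.10 (SE), adjusted p = 4.65e-06). For both genes all D4PGCLC samples were above all D2PGCLC samples. *Cpt1a*, which brings fatty acids into mitochondria, rose from 37.3 ± 4.57 to 75.6 ± 12.1 CPM (log2 fold change 1.02, adjusted p = 0.000113). *Sept1*, a septin, rose from 32.6 ± 2.02 to 73.5 ± 15.3 CPM (log2 fold change 1.17, adjusted p = 4.76e-05). It overlaps *Zfp553* on the other strand, and whether counting used strand is not stated.

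Fewer genes were called lower, and the most abundant of them on day 2 was *H19*, an imprinted long noncoding RNA (ENSMUSG00000000031, chr7:142575529-142578143). It was at 394, 604 and 378 CPM in D2PGCLC and 124, 159.5 and 109 CPM in D4PGCLC. All D4PGCLC samples were below all D2PGCLC samples (log2 fold change -1.81 ± 0.19 (SE), adjusted p = 1.47e-05), and replicate 2 was the highest on both days. *Dner*, a transmembrane Notch ligand of neurons, was at 15.6, 13.8 and 15.6 CPM in D2PGCLC and 2.27, 3.74 and 2.49 CPM in D4PGCLC (log2 fold change -2.40 ± 0.30 (SE), adjusted p = 7.2e-05). *Egr1*, an immediate early gene induced by ERK, was at 22.2, 21.5 and 11.8 CPM in D2PGCLC and 4.00, 5.03 and 4.61 CPM in D4PGCLC (log2 fold change -2.02 ± 0.25 (SE), adjusted p = 6.58e-05). *Trh*, the precursor of thyrotropin-releasing hormone, was at 45.2, 54.3 and 43.5 CPM in D2PGCLC and 11.5, 18.1 and 9.08 CPM in D4PGCLC (log2 fold change -1.89 ± 0.20 (SE), adjusted p = 1.47e-05). *Pga5*, a pepsinogen gene, was at 5.18, 5.63 and 6.96 CPM in D2PGCLC and 0.424, 1.11 and 0.401 CPM in D4PGCLC (log2 fold change -3.19 ± 0.66 (SE), adjusted p = 0.00402). The ranges of all these genes were apart. *Prlr*, the prolactin receptor, fell from 7.63 ± 1.70 to 1.84 ± 1.01 CPM and *Car12*, a membrane carbonic anhydrase, from 23.3 ± 2.89 to 7.87 ± 2.06 CPM, with log2 fold changes of -2.04 and -1.57.

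*Esrp2*, an epithelial splicing regulator, fell from 17.2 ± 1.69 to 6.41 ± 0.818 CPM (log2 fold change -1.42 ± 0.20 (SE), adjusted p = 0.000241), and *Ap1m2*, a clathrin adaptor subunit of epithelia, fell from 35.5 ± 1.15 to 13.4 ± 2.33 CPM (log2 fold change -1.41 ± 0.17 (SE), adjusted p = 5.97e-05). *Fgfr2*, an FGF receptor, was at 62.0, 67.0 and 51.4 CPM in D2PGCLC and 29.3, 24.1 and 23.7 CPM in D4PGCLC (log2 fold change -1.23 ± 0.14 (SE), adjusted p = 3.45e-05), and its annotated span holds other expressed genes on both strands. *Trim2*, a ubiquitin ligase of neurons, fell from 50.4 ± 3.76 to 21.8 ± 2.69 CPM (log2 fold change -1.21, adjusted p = 0.000304), and *Ina*, a neuronal intermediate filament, from 92.2 ± 12.3 to 45.1 ± 8.92 CPM (log2 fold change -1.03, adjusted p = 0.00178). *Nrk*, an X-linked kinase of the placenta, was at 44.8, 61.1 and 27.9 CPM in D2PGCLC and 21.1, 24.6 and 8.74 CPM in D4PGCLC. Its call (adjusted p = 0.0181) was lost without D2PGCLC replicate 1, D2PGCLC replicate 2 or D4PGCLC replicate 3, with an adjusted p of up to 0.0835. *Mc5r*, a melanocortin receptor, had an adjusted p of 0.0203 and of up to 0.0900 in the 4 fits that lost it. These were the fits without D2PGCLC replicate 1, D2PGCLC replicate 2, D4PGCLC replicate 1 or D4PGCLC replicate 3. *Esrp2* and *Ina* each overlap an expressed gene on the opposite strand.

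No gene of the machinery that writes or reads the silent state was called. Of the 15 PRC1.6 subunits 1 rose and 2 fell, with a median of -0.07. Over all tested genes 7.26% rose and 4.6% fell. *Yaf2*, an RYBP relative, rose from 5.25 ± 0.433 to 9.46 ± 1.28 CPM (log2 fold change 0.85, adjusted p = 0.00328). *Mga*, the subunit that binds E-boxes, was at 343, 318 and 282 CPM in D2PGCLC and 268, 208 and 152 CPM in D4PGCLC, and *Pcgf6*, the subunit that names the complex, was at 96.0, 97.5 and 97.0 CPM in D2PGCLC and 83.4, 74.0 and 81.9 CPM in D4PGCLC. Both fell, with log2 fold changes of -0.59 and -0.28, but *Mga* missed the threshold in 3 of the 12 alternative fits (highest adjusted p = 0.0652) and *Pcgf6* in 6 (highest adjusted p = 0.115). *E2f6* was at 33.3, 39.3 and 39.7 CPM in D2PGCLC and 31.6, 33.2 and 31.5 CPM in D4PGCLC (adjusted p = 0.12). Of 18 tested DNA methylation enzymes and partners 2 rose and 3 fell, and of 26 genes of PRC2 and H3K9 methylation none rose and 3 fell. The stress gene *Gadd45b*, linked to DNA demethylation, rose from 35.0 ± 5.82 to 50.9 ± 6.36 CPM (log2 fold change 0.54), the imprint guardian *Zfp57* from 151 ± 11.1 to 192 ± 20.5 CPM (log2 fold change 0.35), and the glycosylase *Tdg* fell from 75.3 ± 2.60 to 61.0 ± 5.03 CPM (log2 fold change -0.30). *Zfp57* missed the threshold in 4 of the 12 alternative fits (highest adjusted p = 0.126) and *Gadd45b* without D2PGCLC replicate 1 (adjusted p = 0.0654). In the DNA methylation list 1 rose without any 1 of the D2PGCLC replicates or without D4PGCLC replicate 3. None of it fell without D2PGCLC replicate 1, D2PGCLC replicate 3 or D4PGCLC replicate 3, and 5 fell without D4PGCLC replicate 2. In the PRC2 list none fell without D2PGCLC replicate 1 or D4PGCLC replicate 3, and 1 fell without D2PGCLC replicate 2 or D2PGCLC replicate 3. *Phf19*, a PRC2 cofactor, was at 245, 259.9 and 233 CPM in D2PGCLC and 209, 202 and 206 CPM in D4PGCLC (adjusted p = 0.0737).

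Pluripotency genes moved in both directions. Of 20 naive pluripotency genes 3 rose, 3 fell and 2 were called higher. Over all tested genes 7.26% rose, 4.6% fell, 2.56% were called higher and 0.376% lower. *Tbx3*, a T-box factor of naive cells, was at 18.4, 17.8 and 16.5 CPM in D2PGCLC and 35.9, 36.7 and 40.6 CPM in D4PGCLC (log2 fold change 1.10 ± 0.10 (SE), adjusted p = 2.38e-06), and *Klf4* was at 6.16, 6.27 and 5.55 CPM in D2PGCLC and 10.5, 13.5 and 13.9 CPM in D4PGCLC (log2 fold change 1.08 ± 0.15 (SE), adjusted p = 0.000278). Both were below their naive ESC means of 155 and 173 CPM on either day. *Tdh*, threonine dehydrogenase, fell from 524 ± 20.1 to 346 ± 28.9 CPM (log2 fold change -0.60 ± 0.07 (SE), adjusted p = 5.97e-05). *Esrrb* and *Tet2* fell by less, and without D2PGCLC replicate 1, D2PGCLC replicate 3 or D4PGCLC replicate 3 only 1 gene of the list passed as lower. Of 22 tested formative and primed genes 3 rose and 3 fell. *Etv5* fell from 617 ± 13.6 to 483 ± 31.0 CPM (log2 fold change -0.35 ± 0.07 (SE), adjusted p = 0.00404). *Myc* was at 15.2, 14.1 and 14.1 CPM in D2PGCLC and 5.67, 9.46 and 4.84 CPM in D4PGCLC and was called lower (log2 fold change -1.12 ± 0.31 (SE), adjusted p = 0.0236), a call that was lost without D2PGCLC replicate 1, D2PGCLC replicate 3, D4PGCLC replicate 1 or D4PGCLC replicate 3, where the adjusted p reached 0.108. *Zic2*, *Sox3* and *Etv4* rose, of which *Sox3* was called, and *Pim2* fell. No gene of the list was called higher without D2PGCLC replicate 2, D2PGCLC replicate 3, D4PGCLC replicate 2 or D4PGCLC replicate 3, or with only the 6 samples fitted. Of the genes that rose 1 was left without D2PGCLC replicate 3 and none without D4PGCLC replicate 2. Without D4PGCLC replicate 3, 1 gene of this list passed as lower.

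Of the 42 tested imprinted genes 1 rose and 5 fell, and *H19* was the 1 call. Over all tested genes 7.26% rose, 4.6% fell and 0.376% were called lower. *Gnas*, a G protein subunit, rose from 51.2 ± 3.68 to 83.2 ± 9.20 CPM (log2 fold change 0.70 ± 0.09 (SE), adjusted p = 0.000122). *Impact*, a regulator of translation, fell from 289 ± 19.9 to 196 ± 9.75 CPM (log2 fold change -0.56 ± 0.07 (SE), adjusted p = 0.000138), and *Ube3a*, a ubiquitin ligase, fell from 124 ± 9.05 to 88.4 ± 16.4 CPM (log2 fold change -0.49 ± 0.11 (SE), adjusted p = 0.00848). *Gnas* overlaps *Nespas* and *Ube3a* overlaps *Snhg14*, each on the opposite strand. *Zdbf2* and *Mest* also fell, and 3 of the list fell without D2PGCLC replicate 1 or without D4PGCLC replicate 3.

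Targets of p53, the DNA damage factor, rose in part. Of 25 tested genes 11 rose, 1 fell and 1 was called, and the median log2 fold change was 0.39. Of all tested genes 7.26% rose, 4.6% fell and 2.56% were called higher. *Cdkn1a*, the CDK inhibitor p21, was at 13.2, 16.4 and 19.4 CPM in D2PGCLC and 27.8, 33.7 and 36.4 CPM in D4PGCLC, a log2 fold change of 1.00 ± 0.14 (SE) that came just short of a call (adjusted p = 0.000223). *Pmaip1*, which encodes the death factor NOXA, rose from 32.6 ± 3.38 to 54.4 ± 5.18 CPM (log2 fold change 0.74 ± 0.12 (SE), adjusted p = 0.000627). *Apaf1*, the apoptosome core, rose from 42.1 ± 4.91 to 62.4 ± 5.87 CPM (log2 fold change 0.57 ± 0.10 (SE), adjusted p = 0.00122), and *Ei24* from 88.2 ± 2.88 to 117 ± 6.04 CPM (log2 fold change 0.41 ± 0.07 (SE), adjusted p = 0.000947). *Btg2*, *Phlda3*, *Mdm2*, *Zmat3*, *Ccng1* and *Plk2* rose by 0.27 to 0.86, and *Tap1*, which feeds peptides to MHC class I, was called higher at 0.919, 0.860 and 0.750 CPM in D2PGCLC and 2.09, 1.96 and 3.15 CPM in D4PGCLC (log2 fold change 1.51 ± 0.30 (SE), adjusted p = 0.00351). *Trp53* itself fell from 579.9 ± 35.9 to 471 ± 34.3 CPM (log2 fold change -0.30 ± 0.08 (SE), adjusted p = 0.0208). The count that rose was 5 without D2PGCLC replicate 1, 6 without D2PGCLC replicate 2 and 5 without D4PGCLC replicate 3, and 5 genes were called without D2PGCLC replicate 3.

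In the LIF and STAT3 list of 14 tested genes 4 rose and 5 fell, where 7.26% of all tested genes rose and 4.6% fell. *Stat3* rose from 22.1 ± 0.404 to 32.9 ± 4.15 CPM (log2 fold change 0.57 ± 0.09 (SE), adjusted p = 0.00059), as did *Jak1*, *Pim1* and *Socs1*, while the receptor genes *Lifr*, *Il6st* and *Il6ra* and the genes *Socs2* and *Pim2* fell. *Stat3* overlaps *Stat5a*. Leaving out 1 replicate left 1 to 3 genes higher, with 1 without D2PGCLC replicate 3, and 1 to 5 lower, with 1 without D2PGCLC replicate 1 or D4PGCLC replicate 3. Of 41 tested WNT genes 4 rose and none fell, where 7.26% of all tested genes rose. With the replicate block, without D2PGCLC replicate 3 or without D4PGCLC replicate 1, 1 WNT gene fell, and the calls went from 2 to 1 without D2PGCLC replicate 3. *Sfrp1*, a secreted WNT inhibitor, rose from 16.7 ± 1.89 to 28.1 ± 1.63 CPM (log2 fold change 0.75 ± 0.12 (SE), adjusted p = 0.000464), and the receptor *Fzd1* was called higher at 0.981, 1.04 and 0.900 CPM in D2PGCLC and 2.97, 2.74 and 3.35 CPM in D4PGCLC (log2 fold change 1.63 ± 0.32 (SE), adjusted p = 0.00298). In the BMP list 4 of 23 rose and 3 fell. There 1 rose without D2PGCLC replicate 3 or D4PGCLC replicate 2 and 2 without D2PGCLC replicate 1, and 1 fell without any 1 of D2PGCLC replicate 1, D2PGCLC replicate 2, D4PGCLC replicate 2 or D4PGCLC replicate 3. *Jag2*, a Notch ligand, was called higher at 12.9, 13.5 and 9.66 CPM in D2PGCLC and 22.4, 28.6 and 24.1 CPM in D4PGCLC (log2 fold change 1.06 ± 0.13 (SE), adjusted p = 7.77e-05), and *Hes1* rose while *Notch2* fell among 20 tested Notch genes. *Notch2* missed the threshold in 5 of the 12 alternative fits (highest adjusted p = 0.159), among them those without D2PGCLC replicate 1, D2PGCLC replicate 3, D4PGCLC replicate 2 or D4PGCLC replicate 3. *Hes1* missed it without D2PGCLC replicate 2 or D4PGCLC replicate 3, and no Notch gene was called without D2PGCLC replicate 3 or D4PGCLC replicate 2. In the retinoic acid list 3 of 19 rose, namely *Stra8*, the retinal reductase *Dhrs3* and the receptor *Rarg*. Of 17 tested FGF ligands and receptors *Fgfr2* was the 1 that fell and none rose. Of 16 ERK feedback and ETS genes 1 rose and 3 fell, including *Dusp6*, from 77.3 ± 3.36 to 59.3 ± 2.36 CPM (log2 fold change -0.38 ± 0.09 (SE), adjusted p = 0.00994).

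The basement membrane genes *Col4a1* and *Col4a2* rose from 6.45 ± 0.126 to 12.0 ± 3.04 CPM and from 3.06 ± 0.817 to 5.73 ± 0.420 CPM (log2 fold changes 0.90 and 0.91, adjusted p = 0.00191 and 0.00533), although they overlap each other on opposite strands. *Col18a1*, the most abundant collagen gene among those that changed, fell from 915 ± 43.4 to 705 ± 36.3 CPM (log2 fold change -0.38 ± 0.07 (SE), adjusted p = 0.00291). In all, 7 of 47 tested collagen and laminin genes rose, 1 fell and 4 were called higher. The shares over all tested genes were 7.26%, 4.6% and 2.56%. The count that rose was 4 without D2PGCLC replicate 1 and 3 without D4PGCLC replicate 3, and that of calls was 2 without either of them. Of 49 tested integrin, cadherin and claudin genes 4 rose and none fell, a share near the 7.26% of all tested genes that rose. They included *Itga5*, the fibronectin receptor subunit, which was at 24.8, 21.9 and 21.7 CPM in D2PGCLC and 36.2, 39.4 and 37.1 CPM in D4PGCLC (log2 fold change 0.72 ± 0.10 (SE), adjusted p = 0.000223). The count that rose was 2 without D2PGCLC replicate 1, D2PGCLC replicate 2 or D4PGCLC replicate 1. Of 19 tested MHC class I genes 3 rose, and 1 rose without D2PGCLC replicate 1, D2PGCLC replicate 3 or D4PGCLC replicate 2.

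Of 42 S phase genes 1 rose and 2 fell, of 41 G2 and M phase genes 1 rose and 3 fell, and their medians were -0.08 and -0.04. The shares over all tested genes were 7.26% that rose and 4.6% that fell. Of the S phase genes none fell without D2PGCLC replicate 2 or D4PGCLC replicate 3, while 2 rose without D4PGCLC replicate 1 and none without any other of the 6 samples. In the G2 and M phase list 6 fell without D4PGCLC replicate 1, 1 without D2PGCLC replicate 2 and none without any other of the D2PGCLC or D4PGCLC samples. Of 83 ribosomal protein genes 2 rose, and of 83 nuclear subunits of oxidative phosphorylation 3 rose, with none lower in either list. The genes that rose were copies of limited expression. They were *Rpl39l* and *Rpl3l*, the latter the form of skeletal muscle and heart, and the cytochrome oxidase subunits *Cox6b2*, *Cox7b2* and *Cox7a1*, of testis and muscle. *Rpl39l* and *Cox7b2* had means of 20.6 and 2.26 CPM in EpiLCs, above their day 4 means of 18.7 and 1.66 CPM. In EpiLCs *Cox6b2*, *Cox7a1* and *Rpl3l* were below their day 4 means, at 4.73, 2.60 and 0.755 CPM. *Cox7a1* (adjusted p = 0.0471) missed the threshold in 5 of the 12 alternative fits. *Cox6b2* was at 23.7, 19.4 and 20.1 CPM in D2PGCLC and 41.2, 33.4 and 74.8 CPM in D4PGCLC, with replicate 3 of D4PGCLC the highest (log2 fold change 1.24 ± 0.26 (SE), adjusted p = 0.00417). The oxidative phosphorylation count was 1 without D2PGCLC replicate 1 and 5 without D4PGCLC replicate 1, and it was 5 with the replicate block. None of the 13 mitochondrial subunits passed the test. Of 35 glycolysis and hypoxia-linked genes 1 rose, of 25 cholesterol genes 3 fell, led by *Sqle* (from 163 ± 2.32 to 131 ± 1.31 CPM, adjusted p = 0.00299), and of 34 amino acid and ATF4 genes *Cbs* rose and *Slc7a3* fell. Without D2PGCLC replicate 2, 10 genes of the amino acid list fell, and of the cholesterol list 1 fell without D2PGCLC replicate 2, D4PGCLC replicate 1 or D4PGCLC replicate 3. *Mycn*, *Myc* and *Ccnd1* fell and 5 others rose among 26 MYC, cyclin and CDK inhibitor genes. Those 5 were *Cdkn1a*, *Mxd3*, *Rbl2*, *Mxd4* and *Cdkn2a*, and leaving out any 1 of the 6 replicates left 1 to 3 of the list higher, with 1 without D2PGCLC replicate 1 or D2PGCLC replicate 3. Of 21 immediate early genes 1 rose and 3 fell, and 1 fell without D2PGCLC replicate 1, D2PGCLC replicate 3 or D4PGCLC replicate 3. None of 18 tested *Hox* genes passed the test. Their median log2 fold change was 0.60, or 0.33 with groups at 0 set to the value of 3 counts per library.

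The germ cell markers include *Dppa3*, whose reporter was used to sort the cells, and the transgenes *Tfap2c* and *Prdm1*. Their D2PGCLC means were 452, 232 and 106 CPM, so a large part of the sum below comes from genes tied to the sort or the induction. The sums of the other marker lists were below that of the germ cell list on both days. All 9 germ cell markers were detected, with a sum of 1311 to 1344 CPM in D2PGCLC and 1403 to 1567 CPM in D4PGCLC, and 3 of them rose. Of 12 primitive streak and mesoderm markers 9 were tested and 3 rose, where 7.26% of all tested genes rose. The markers summed to 19.8 to 25.7 CPM on day 2 and 28.3 to 38.7 CPM on day 4. *Tbx1* had 3, 1 and 2 counts in D2PGCLC and 30, 33 and 55 counts in D4PGCLC, *Hand1* was at 1.44, 1.40 and 0.870 CPM in D2PGCLC and 2.94, 4.22 and 3.81 CPM in D4PGCLC (log2 fold change 1.57 ± 0.29 (SE), adjusted p = 0.00215), and *Twist1* passed with an adjusted p of 0.0395 that was lost in 8 of the 12 alternative fits. *T*, the defining gene of the streak, was at 0.0797 and 0.0301 CPM. Of 12 endoderm markers 9 were tested and 2 rose, with sums of 8.40 to 9.14 and 9.25 to 13.5 CPM. *Gata6* was at 0.398, 0.215 and 0.120 CPM in D2PGCLC and 2.12, 1.78 and 1.52 CPM in D4PGCLC (log2 fold change 2.86 ± 0.52 (SE), adjusted p = 0.00165), *Sox17* at means of 0.193 and 0.702 CPM, and *Ttr* had no count. Of 10 tested neural markers *Pax6* and *Stmn2* rose, with list sums of 115 to 143 and 108 to 131 CPM, most of it *Tubb3*. *Gata2* fell and *Hand1* rose among the trophoblast markers (53.2 to 73.6 and 62.5 to 70.4 CPM), and *Prl3d1* and *Tpbpa* had no count. *Gata2* (adjusted p = 0.0413) missed the threshold without D2PGCLC replicate 1, D2PGCLC replicate 2 or any 1 of the D4PGCLC replicates, with an adjusted p of up to 0.224. The endothelial and blood markers summed to 365 to 376 and 412 to 459 CPM, nearly all of it *Pecam1*, which PGCs express themselves. The embryonic globins *Hba-x* and *Hbb-bh1* had no count. Fibroblast markers summed to 2.07 to 3.94 and 3.44 to 4.46 CPM. Without 1 replicate, the neural, mesoderm, endoderm, endothelial and fibroblast lists had 0 to 1, 2, 1 to 3, 0 to 1 and 0 to 1 genes that rose. The part of these markers in the rise of other genes was not tested.

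The second step was then set beside the third, from day 4 to day 6. A gene that passes in 1 step alone is not thereby shown to differ, so the difference between the steps was tested itself. It is the change from D4PGCLC to D6PGCLC minus that from D2PGCLC to D4PGCLC. The D4PGCLC samples enter both changes, and their chance deviations move the 2 in opposite directions, which this test does not remove. Genes picked for their change in the second step are therefore prone to a smaller or opposite later change. From day 4 to day 6, 415 genes were called higher (2.29%) and 142 lower (0.785%), in all 3.08% of those tested. The difference between the steps was called for 64 genes (0.354%), of which 16 were higher (0.0884%) and 48 lower (0.265%), that is, with a smaller rise or larger fall in the later step. A fit with a replicate block called 99 genes. Without 1 library of the 9 the count went from 26 (without D4PGCLC replicate 3) to 123 (without D4PGCLC replicate 1). It was 35 without D2PGCLC replicate 1, 32 without D4PGCLC replicate 2, 99 without D2PGCLC replicate 3 and 98 without D6PGCLC replicate 2. Of the 463 genes called higher from day 2 to day 4, 17 were among the 64, and of the 68 called lower 4 were.

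*Dusp9*, *Actn2* and *Pde3a* rose in the second step, and in the third step none of them passed the test, with log2 fold changes of -0.02, 0.10 and 0.13. *Dusp9* was at 577 and 568 CPM on days 4 and 6, and the difference between the steps was -1.17 ± 0.16 (SE), adjusted p = 0.00221 on the log2 scale. *Actn2* was at 27.3 and 29.3 CPM (-1.67 ± 0.29 (SE), adjusted p = 0.0118), and *Pde3a* at 20.5 and 22.5 CPM (-1.51 ± 0.28 (SE), adjusted p = 0.019). *H19* fell in the second step and rose in the third, with means of 119 CPM in EpiLCs, 458 on day 2, 131 on day 4 and 199.9 on day 6 (2.42 ± 0.34 (SE), adjusted p = 0.00259). *Rhox5* rose and then fell, to 146 CPM on day 6 (-0.99 ± 0.16 (SE), adjusted p = 0.00815). *Dazl* went on to 428 CPM on day 6, a log2 fold change of 1.20 from day 4, and *Asz1* to 19.9 CPM. For these genes no difference between the steps was detected, with adjusted p-values of 0.0989 and 0.302.

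**Figure D4:**
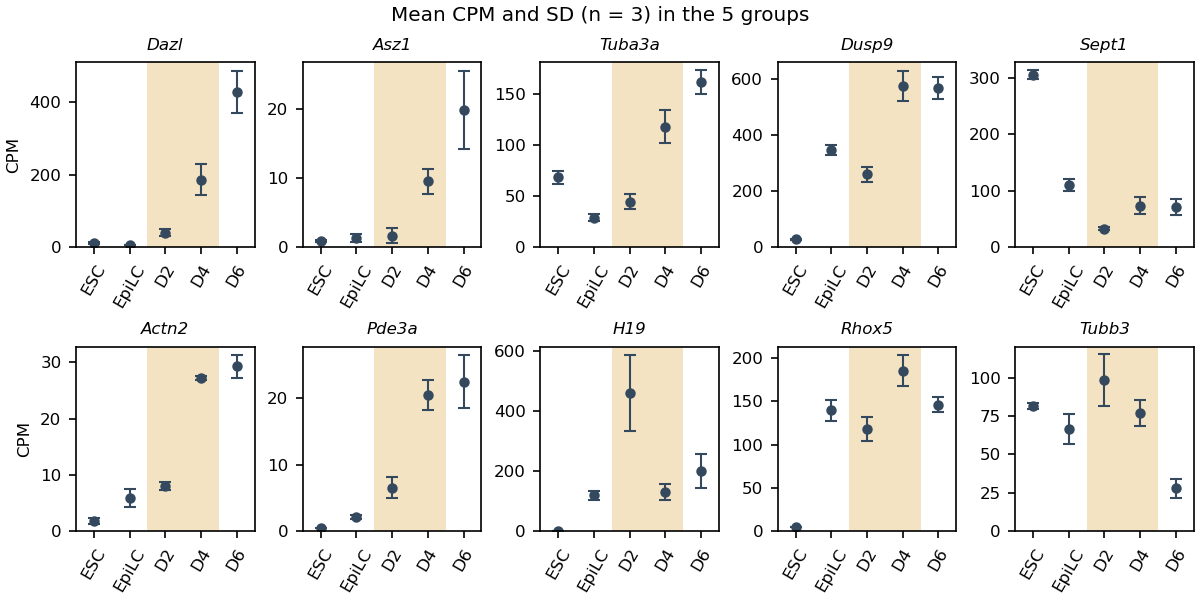
Mean TMM-normalized CPM (y axis, from 0) with SD (n = 3) in ESCs, EpiLCs and PGCLCs on days 2, 4 and 6 (x axis) for 10 genes; the shaded band marks the D2PGCLC and D4PGCLC groups compared. *Dazl* and *Asz1* are higher again on day 6, the means of *Dusp9*, *Sept1*, *Actn2* and *Pde3a* on days 4 and 6 lie close together, *H19* peaks on day 2 at 458 CPM, and *Tubb3* is lowest on day 6.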

How the data were processed

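The authors deposited 1 table of raw read counts per gene for the 15 samples, made from directional RNA-seq libraries. The submitters' processing notes name Trim Galore, FastQC, STAR and the mouse build mm10; the counting tool and its use of strand are not given in the sources used here. Samples were grouped by their labels, and the 55536 genes matched the annotation by identifier. Counts were tested with edgeR 4.0.16 (R 4.3.3): TMM, filterByExpr with a minimum of 10, 1 coefficient per group over all 15 samples, glmQLFit and glmQLFTest, and Benjamini-Hochberg adjustment over 18090 genes. SE is the log2 fold change divided by the square root of F. Depth was 28907803 to 34808685 counts in the 6 samples compared. On simulated data with 200 changed genes of 17482, for the day 4 against day 2 comparison, 192 were recovered with 0 false calls. The changed genes were all above 1 CPM on average, and the samples were drawn without pairing. Each changed gene was given a larger fold than the 1.38 median log2 fold change of the 463 genes called higher. Of those 463 genes, 220 were below 1 CPM on day 2, so the simulation does not describe such calls.

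The alternatives were DESeq2 1.42.0, its size factors in edgeR, no filter, no fold cutoff, only the 6 samples, a replicate block and leaving out single libraries. Deviations of same-numbered D2PGCLC and D4PGCLC samples from their group means correlated at 0.36, 0.35 and 0.37. Those of other pairs correlated at -0.24 to -0.09, but each sample enters its group mean, so positive same-numbered values push the others lower. The numbers in the labels were taken to pair the samples. The main fit held no term for this pairing, so p-values and SEs given without naming the block ignore it. With the replicate block 543 genes were called from day 2 to day 4, against 531. Genes named were the 12 highest and 12 lowest called with at least 100 mean counts and no overlap, the 6 most abundant called in each direction, the transgenes, *Dppa3*, and the 4 with the smallest p in each list with any member a sentence needed; a few such results are not reported here. The gene lists and members were chosen with earlier results of these data known. Promoters came from RefSeq (GRCm38.p6).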

Additional observations from a re-analysis of the deposited data

Results flagged for a closer look

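These genes are given here because the change from D4PGCLC to D6PGCLC differed from the change from D2PGCLC to D4PGCLC in the edgeR test of that difference, at an adjusted p under 0.05. Both changes use the same D4PGCLC samples, so chance deviations of those samples move the 2 changes in opposite directions. The later change minus the earlier one, on the log2 scale, was negative for these genes: *Actn2* -1.67, *Pde3a* -1.51, *Sept1* -1.215, *Dusp9* -1.17, *Tubb3* -1.10, *Rhox5* -0.99, *Tuba3a* -0.96 and *Phf19* -0.75. It was positive for *H19* (2.42) and *Impact* (0.59). *Phf19*, which did not pass the test from day 2 to day 4, fell from day 4 to day 6 with a log2 fold change of -1.01, and *Tubb3* fell by 1.46 on that scale in the same step. Without D6PGCLC replicate 1, the library with the fewest detected genes, the adjusted p was 0.0518 for *Tuba3a* and 0.0623 for *Tubb3*, and it was at most 0.0487 for the 8 others. With the replicate block all 10 genes kept an adjusted p under 0.05.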

How the results depend on the processing

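Over the alternatives that kept the fold cutoff the genes called from day 2 to day 4 ranged from 390 to 644, against 531, and 65.7% to 99.6% of the 531 were called again. Without the fold cutoff 2146 genes passed, 1313 higher and 833 lower, with 24 germline, 11 meiotic and 11 piRNA genes among those higher. Leaving out 1 library gave 34 to 103 genes called lower, 8 to 13 germline, 2 to 4 meiotic and 3 to 7 piRNA genes called higher, and 26 to 123 genes called for the difference between the steps. That difference was called for 168 genes by DESeq2, 223 with no filter on low counts and 99 with the replicate block, against 64. The causes of these shifts were not tested. The replicate block otherwise lost none of the 134 named genes that passed and added 6. Of the 134, 80 passed in all 12 alternative fits and 54 missed the threshold in at least 1. Log2 fold changes that changed sign without 1 library were those of *Dppa3* (-0.12 to 0.056), *mt-Co2* (-0.26 to 0.0011) and *Thy1* (-0.012 to 1.08), none of which passed the test with all samples. At this depth 3 counts were at most 0.104 CPM, and differences of genes near that level in both groups could not be resolved. Where only the day 2 level was near it, as for *Tbx1*, *Rhox2d* and *Rhox2e*, the size of the fold change is uncertain.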

Other observations

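Genes of the X chromosome, a group chosen after its values were seen and therefore given with no test, made up 35 of the 463 genes called higher (7.56%) and 684 of the 18090 tested genes (3.78%). The ESCs were male. The 35 include the 8 near-identical *Rhox2* copies, which are not separate measurements. Others belong to families known from germ cells and tumours, of which *Magea4* was at 0.613, 0.573 and 0.630 CPM in D2PGCLC and 1.39, 1.11 and 1.92 CPM in D4PGCLC and *Magea8* rose from 0.288 ± 0.162 to 1.22 ± 0.388 CPM (log2 fold change 2.04 ± 0.54 (SE), adjusted p = 0.0197). *Fthl17f*, of a ferritin-like family of the germline, was at 0.889, 0.609 and 1.17 CPM in D2PGCLC and 3.12, 3.62 and 4.44 CPM in D4PGCLC (log2 fold change 2.05 ± 0.35 (SE), adjusted p = 0.00109), and its relative *Fthl17c* was at 0.552, 0.537 and 0.840 CPM in D2PGCLC and 2.73, 2.26 and 2.52 CPM in D4PGCLC (log2 fold change 1.95 ± 0.36 (SE), adjusted p = 0.00183). All D4PGCLC samples were above all D2PGCLC samples for these 4 genes. *Elf4*, an ETS factor, rose from 3.74 ± 1.24 to 8.74 ± 2.85 CPM (log2 fold change 1.23 ± 0.24 (SE), adjusted p = 0.00279). Another 8 X-linked genes were called lower, 11.8% of those 68 and so also above the 3.78% of tested genes. Among them *Ftx*, a noncoding RNA gene near *Xist*, fell from 7.31 ± 1.09 to 3.06 ± 1.15 CPM (log2 fold change -1.26 ± 0.27 (SE), adjusted p = 0.00564), and *Amot*, a Hippo pathway scaffold, from 11.2 ± 1.64 to 5.56 ± 1.29 CPM (adjusted p = 0.00848).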
